A study of Mus musculus with 8 samples.

Results

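Retinol, or vitamin A, is carried in blood by the binding protein Rbp4 and enters cells through the membrane receptor Stra6. Inside cells it is oxidised to retinal and then, by retinaldehyde dehydrogenases such as Aldh1a2, to retinoic acid, which Cyp26 enzymes break down. The small proteins Crabp1 and Crabp2 hold retinoic acid in the cell, and the nuclear receptors Rara, Rarb and Rarg, paired with retinoid X receptors, bind direct repeats in DNA and switch genes on when it is bound. In mesenchymal cells retinoic acid is best known for patterning and differentiation, and Rarb is the textbook gene that retinoic acid induces through such a repeat in its own promoter.

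The genes described here are Stra6, Rbp4, Crabp1, Crabp2, Rara, Rarb, Rarg, Aldh1a2 and Cyp26b1, the 9 of 24062 genes in the RNA-seq table whose symbols were on a list of retinoid pathway names. The list was chosen on the RNA log2 fold changes and adjusted p-values of the same comparison, which were known when it was drawn up, so the RNA values are given as a description. DNA methylation, which the choice did not use, was read at the same genes. The cells were stable clones of NIH3T3, an immortalised line of mouse embryo fibroblasts. Clones 10 and 12 carried 14-3-3ε in the vector p3xFLAG-CMV-10, whose viral promoter drives a FLAG-tagged copy, and clones 2 and 3 carried the control vector. All were grown with 10% serum, clones were picked as single colonies after selection in 800 µg/mL of G418, and those with 14-3-3ε were checked by western blot for FLAG, per the labels' protocols. Each clone was measured once by RNA-seq and once by RRBS (reduced representation bisulfite sequencing, a reading of methylation in CpG-rich fragments), making 8 samples in 4 groups of 2.

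Both tables hold the comparison of the groups as the authors computed it, with no value per clone, so the spread between clones and the depth of each library cannot be shown. Higher and lower mean 14-3-3ε clones relative to control clones. Neither table states the sign, so each direction rests on reading positive values in the usual way. Of 12 fibroblast markers 11 were tested and 5 were higher, where 6.15% of all tested genes were, while Fap was listed at 0. Among 17 markers of epithelium, blood, endothelium and neural cells, 3 were tested, Krt8, Cd68 and Map2, of which Map2 was lower. The others had mean normalized counts from 0 to 10.2 in the authors' deposited table, with Kdr and Adgre1 (listed as Emr1) at 0 and Ptprc the highest. Whether the higher fibroblast markers bear on the retinoid genes was not tested.

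Of the 9 retinoid genes, Stra6 alone was called higher in 14-3-3ε clones, and none was called lower. A gene was called at the authors' adjusted p under 0.05, a value they gave for 6 of the 9 genes. In all, 10.9% of the 11482 genes with an adjusted p were called (6.15% higher and 4.74% lower). At an unadjusted p under 0.05, 4 of the 9 stood out, Stra6, Rarg, Crabp1 and Rara, where 16.2% of the 17478 genes with a p did. At the gene starts the clearest methylation difference was at Rarb, where 17 of 72 listed cytosines were lower and none was higher, in a gene with nearly no RNA.

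**Figure D1:**
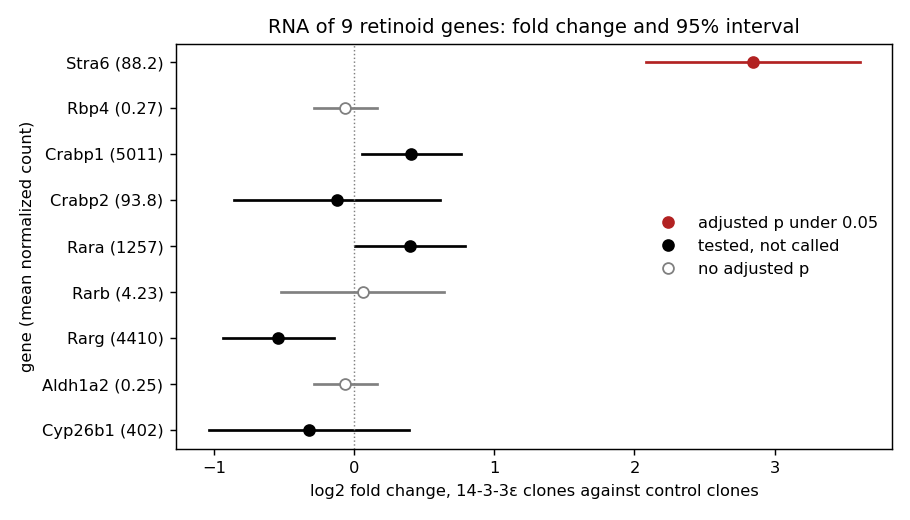
Log2 fold change (x axis) of the 9 retinoid genes (y axis, with the mean normalized count of each) in the authors' deposited table; points are the estimates and lines their 95% intervals. Stra6 at 2.84 lies apart, the intervals of Crabp1 and Rara just clear 0 on the higher side, that of Rarg lies below 0, and the 3 open points had no adjusted p. Rbp4 and Aldh1a2, nearly without RNA, had standard errors of 0.115 and 0.114, below the 0.181 of Crabp1. Narrow intervals at such low counts are thus no measure of how little a gene changed.

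Stra6, the receptor that takes up retinol from Rbp4, stood at 2.84 ± 0.39 (log2 fold change ± standard error, n = 2 clones a group, adjusted p 6.42e-11) in the authors' deposited table. This is a 7.18-fold difference, with a 95% interval from 4.23 to 12.2. Its mean normalized count was 88.2 in the authors' deposited table, a low level, where the lowest with an adjusted p was 33.1. It ranked 10 among tested genes by log2 fold change. The gene next above it was Plac1 at 2.93 and the gene next below Ifi205 at 2.70 in the authors' deposited table, a likeness over 1 comparison only. In bulk RNA, more cells that carry a transcript and more of it per cell cannot be told apart, and likewise for less.

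Rbp4, the carrier of retinol in blood, had a mean normalized count of 0.270 and a log2 fold change of -0.06 in the authors' deposited table. It had no adjusted p. RNA of the carrier that Stra6 serves was thus nearly absent.

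Genes next to Stra6 were higher as well. The nearest coding gene, Islr, an immunoglobulin-domain and leucine-rich repeat gene that mesenchymal cells express, begins 2242 bp beyond the annotated end of Stra6 on chromosome 9 (58063793 to 58154004 in GRCm38.p6, the assembly of mm10). Islr stood at 2.53 ± 0.36 on the same scale (adjusted p 4.58e-10) in the authors' deposited table. A distance of 250 kb, taken from the annotated span of Stra6, and the names given were chosen after the values were seen. Of 6 tested coding genes within that distance of Stra6, 5 rose and none fell. Beside Islr these were Sema7a, a membrane-anchored semaphorin, at 1.82 (standard error 0.34), the lysyl oxidase gene Loxl1 at 1.11 (0.18), Stoml1 at 0.96 (0.25) and Pml, the gene of nuclear body protein PML, at 0.80 (0.22) in the authors' deposited table. Within 100 kb, 3 of 3 tested genes rose. The sixth gene within 250 kb, Ubl7, was at 0.40 with an adjusted p of 0.369, and the 8 tested genes between 250 and 500 kb ranged from -0.18 to 0.49 with none called in the authors' deposited table.

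The genes that rose spanned 374 kb around Stra6, and on both sides of that stretch the next tested genes were not called. Across the genome, 11.6% of tested coding genes within 250 kb of a gene that rose had risen too, 560 of 4815 such neighbours. Of 384 genes that rose and had at least 5 tested neighbours within 250 kb, 26 had at least 5 neighbours that rose. That count set no upper limit on tested neighbours, of which Stra6 had 6, so it compares numbers and not shares. Genes that rose near each other can each be counted in it. Around the other 8 retinoid genes, none of them called, 3 of 59 tested neighbours within 250 kb rose and 6 fell. Of all tested genes, 6.15% were higher and 4.74% lower. Ccdc33, which overlaps the annotated span of Stra6, had a mean normalized count of 2.84 in the authors' deposited table, and the nearest gene on the other side, Cyp11a1, one of 0.517. The strand setting of the counting was not stated, so reads in overlaps are uncertain.

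**Figure D2:**
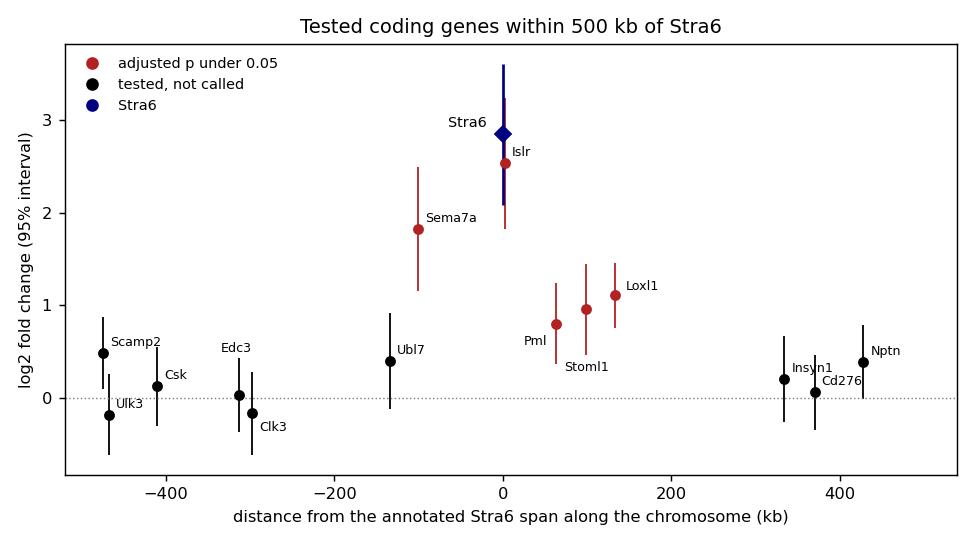
Log2 fold change with its 95% interval (y axis) of tested coding genes against their distance in kb from the annotated span of Stra6 (x axis), from the authors' deposited table. The genes called higher, Sema7a, Islr, Pml, Stoml1 and Loxl1, lie within 250 kb of Stra6, and the genes farther out lie between -0.18 and 0.49.

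Near the RefSeq starts of Stra6 that were read, 1 CpG was more methylated in 14-3-3ε clones. The first of these starts is at 58129088, while the annotated span begins upstream of it at 58063793. That upstream end was not read as a start. A start window here is every position within 1000 bp of a RefSeq start of the gene, and a cytosine was called at the authors' q under 0.05, as 4.74% of all 2361680 cytosines were (2.83% lower and 1.92% higher). In the window of Stra6, 28 cytosines were listed, 2 were called higher and 1 lower, with a mean difference of 4.92 percentage points. Both higher cytosines were the strands of 1 CpG, at 58129309 and 58129310 on chromosome 9, 40 bp before the second RefSeq start. They differed by 28.2 points (q 0.000681) and 38.3 points (q 1.31e-08) in the authors' deposited table. The lower cytosine at 58129584 differed by -11.0 points (q 0.0279) in the authors' deposited table. That CpG is shown because it is the only one in the window of Stra6 called on both strands, in capitals within 30 bases of the RefSeq sequence (GRCm38.p6, chr9:58129295-58129324, plus strand):
Stra6 CpG: gcaggagacaccggCGgcgggctcctgccc

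The neighbouring CpGs at 58129306 and 58129312 lie in the same 30 bases, and neither was called on either strand. Elsewhere in the annotated Stra6 span, 3 cytosines were lower and 1 higher of 42 listed, with a mean of -2.04 points. The 3 lower ones differed by -41.3 points at 58112978 (q 0.00195), -24.3 at 58114249 (q 1.15e-05) and -21.1 at 58096141 (q 0.0219). The higher one, at 58087076, differed by 16.2 points (q 0.0467) in the authors' deposited table. In the start window of Islr, 12 cytosines were listed and none was called, and in that of Sema7a 6 of 86 were lower, none was higher and the mean was -4.38 points. At Pml 1 of 6 listed cytosines was lower, none was higher and the mean was -10.01 points. At Stoml1 none of 24 was called (mean 1.03 points), and at Loxl1, read at both annotated ends, none of 87 (mean -0.81 points).

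The binding proteins were not called. Crabp1, which holds retinoic acid and can hand it to degradation, had a mean normalized count of 5011 and a log2 fold change of 0.41 (95% interval 0.05 to 0.76) in the authors' deposited table, adjusted p 0.133. Crabp2, which delivers retinoic acid to receptors, had a count of 93.8 and a log2 fold change of -0.12 (-0.86 to 0.61) in the authors' deposited table, adjusted p 0.889. The upper end of the Crabp1 interval is a 1.70-fold difference, and that of Crabp2, with fewer reads, spans changes from 0.552 to 1.53 times. In the start window of Crabp1, none of 23 listed cytosines was called. Crabp2 has no entry in the promoter table used, so both annotated ends were read (87948693 and 87953372 on chromosome 3). There 2 of 39 cytosines were lower, the larger difference being -13.0 points at 87948061 in the authors' deposited table.

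The enzymes that make and break down retinoic acid were not called either. Aldh1a2, the dehydrogenase that makes retinoic acid in embryonic mesenchyme, had a mean normalized count of 0.250 and a log2 fold change of -0.06 in the authors' deposited table, with no adjusted p. Its start window on chromosome 9 held 92 listed cytosines with a mean of -0.71 points, 2 of them lower. The larger of these differences was -26.0 points at 71215945 (q 0.00274) in the authors' deposited table. Cyp26b1, a P450 enzyme that degrades retinoic acid, had a mean normalized count of 402 and a log2 fold change of -0.32 (95% interval -1.04 to 0.39) in the authors' deposited table, adjusted p 0.654.

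Inside Cyp26b1 a stretch of lower cytosines was found, on 1 strand only. Its start window held no listed cytosine, so the gene was read over its annotated span on chromosome 6 (84571414 to 84593908), where 18 of 264 cytosines were lower and 3 higher. Of the lower ones, 16 lay within 323 bp, from 84590102 to 84590424, which is 3386 to 3708 bp downstream of the RefSeq start. The ends of this stretch were set by the lower cytosines themselves. All 16 were on the minus strand, where 16 of 20 listed cytosines were called lower with a mean of -16.2 points, from -33.7 to -3.01. On the plus strand of the same stretch none of 19 was called, with a mean of -2.75 points and a lowest q of 0.127. The other 2 lower cytosines and the 3 higher ones lay between 84588618 and 84588671. The tables give no coverage, so the number of reads behind each strand is unknown and its part in the difference was not tested.

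**Figure D3:**
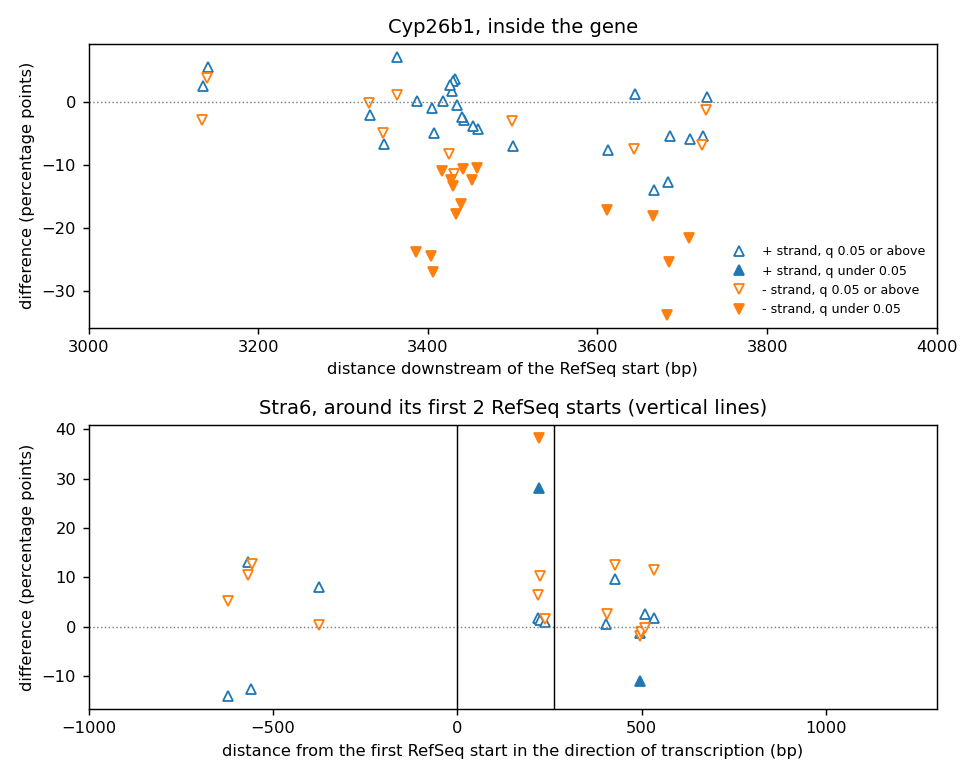
Difference in methylation in percentage points (y axis) of each listed cytosine against its distance in bp from the RefSeq start (x axis), for a stretch inside Cyp26b1 (top) and around the first 2 starts of Stra6 (bottom); triangles up and down are the plus and minus strand, filled where q is under 0.05. In Cyp26b1 the filled points are all minus-strand cytosines, and in Stra6 both strands of 1 CpG stand at 28.2 and 38.3 points.

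Of the retinoic acid receptors, none was called. Rarg had a mean normalized count of 4410 and a log2 fold change of -0.54 (standard error 0.20, 95% interval -0.94 to -0.14) in the authors' deposited table, adjusted p 0.0621. At an adjusted p under 0.1, which 15.1% of tested genes met, Rarg would be called lower. Rara had a count of 1257 and a log2 fold change of 0.40 (standard error 0.20, 95% interval 0.01 to 0.79) in the authors' deposited table, adjusted p 0.202. The estimates of these receptors thus had opposite signs, and that difference was not tested. Rarb had a count of 4.23 and a log2 fold change of 0.06 (standard error 0.30) in the authors' deposited table, with no adjusted p. Among genes with a mean normalized count of at most 10, the largest size of a log2 fold change was 0.84 in the authors' deposited table.

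The RefSeq start of Rarb that was read was less methylated in 14-3-3ε clones. Only this 1 start was used, while the annotated span of the gene reaches on upstream to 17082331. That upstream end was not read as a start. The Rarb start window, around position 16575476 on the minus strand of chromosome 14, held 72 listed cytosines. Of these 17 were lower and none higher (23.6% called), with a mean difference of -11.5 points. By a window rule of at least 5 listed cytosines, at least 3 called, at least 10% called and none called the other way, Rarb was the only 1 of the 8 retinoid genes with enough cytosines to be called. The rule called 3.01% of 14504 gene start windows, 1.93% lower and 1.08% higher. It was chosen with earlier results of these data known, so the call of Rarb is a description. By its mean, the Rarb window ranked 57 from the lowest of those 14504, whose median was -0.11 points and whose 5th percentile was -4.65. The called cytosines ran over 599 bp, from 16575352 to 16575950, or from 124 bp downstream to 474 bp upstream of the start. In that stretch, whose ends were set by the called cytosines, 50 of 58 listed cytosines had a difference below 0. Both strands took part, with 10 called of 29 on the plus strand and 7 of 29 on the minus strand. The largest difference was -49.1 points at 16575352 (q 4.88e-08), followed by -45.2 at 16575509 (q 2.81e-05), in the authors' deposited table.

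The 250 bases before the Rarb start are shown because they hold both lower CpGs and the repeat to which retinoic acid receptors bind (RefSeq, GRCm38.p6, chr14:16575477-16575726, minus strand). Capitals mark the 17-base repeat element and each CpG outside it with at least 1 called cytosine:
Rarb upstream: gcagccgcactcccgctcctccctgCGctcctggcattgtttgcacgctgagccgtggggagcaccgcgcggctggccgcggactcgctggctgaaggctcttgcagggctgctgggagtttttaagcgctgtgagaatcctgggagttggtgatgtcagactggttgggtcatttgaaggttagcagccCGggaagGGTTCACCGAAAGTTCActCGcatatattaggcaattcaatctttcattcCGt

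The element was found by searching promoters for direct repeats of the 6-base units AGGTCA or else AGTTCA or else GGGTCA or else GGTTCA, in any combination and on both strands, with a spacer of 1, 2 or 5 bases of any letter. Promoters here are the 300 bases from 250 before to 50 after each RefSeq start, and 8 of the 9 genes had one. The repeat with a spacer of 5 was in 32 of 32851 promoters (0.0974%), and Rarb was the only retinoid gene of the 8 with it. Spacers of 1 and 2 were in 0.222% and 0.268% of promoters and in none of the 8 genes. A match is a run of letters and no proof of binding. Among the other genes of the pathway lists, Cyp26a1, which also degrades retinoic acid, held it too. Both are shown with the 6-base repeats in capitals, in the direction of transcription, to compare their letters (chr14:16575506-16575535, minus strand, and chr19:37697770-37697799, plus strand):
Rarb element: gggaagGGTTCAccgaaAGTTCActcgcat
Cyp26a1 element: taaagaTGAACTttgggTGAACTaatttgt

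The Cyp26a1 repeat lies on the opposite strand to that of Rarb relative to transcription. The Rarb element, 53 to 37 bp upstream of the start, holds 1 CpG in its spacer. That CpG was not called, with differences of -10.9 points (q 0.389) and -8.56 points (q 0.307) on its strands in the authors' deposited table. Just outside the element, the CpG at 16575509 and 16575510 differed by -45.2 and -33.2 points and was called on both strands. On its other side the cytosine at 16575536 differed by -22.0 points (q 0.00370) in the authors' deposited table. No cytosine was listed inside the Cyp26a1 element, and in the start window of Cyp26a1 none of 106 cytosines was lower and 1 was higher. Cyp26a1 had a mean normalized count of 10.5 and a log2 fold change of 0.28 with no adjusted p in the authors' deposited table.

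**Figure D4:**
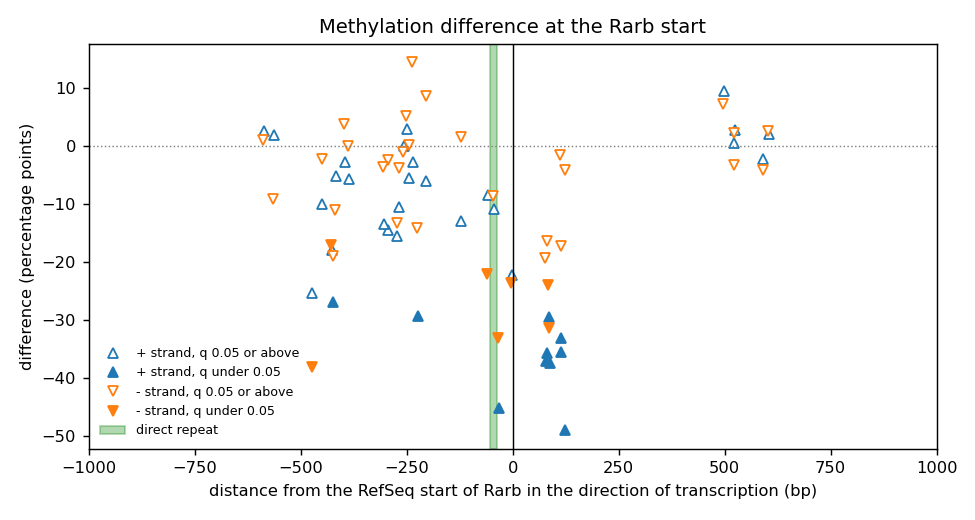
Difference in methylation in percentage points (y axis) of each listed cytosine against its distance in bp from the RefSeq start of Rarb in the direction of transcription (x axis); triangles up and down are the plus and minus strand, filled where q is under 0.05, and the green band is the direct repeat. The filled points lie between 474 bp upstream and 124 bp downstream, all below 0, and the cytosines about 500 bp downstream are open points on both sides of 0.

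Elsewhere in Rarb cytosines were called in both directions, and at the other receptors few were called. In the annotated span of Rarb (16430839 to 17082331) outside the start window, 5 of 151 cytosines were lower and 2 higher, with a mean of 0.38 points. Of all cytosines, 2.83% were lower and 1.92% higher. The 2 higher ones in Rarb differed by 48.7 points at 16803648 (q 8.10e-09) and 30.7 points at 16947164 (q 0.00131). The largest of the 5 lower differences was -31.1 points at 16941905 (q 0.000126) in the authors' deposited table. The start windows of Rara held 94 listed cytosines with a mean of 0.11 points, 2 of them lower. At Rarg none of 81 was called, with a mean of -0.59 points, and none of 124 over its annotated span. The start windows of Rbp4 held 92 with a mean of 2.25 points, 2 of them lower, so its called cytosines and its mean had opposite signs. Over all 9 genes 26 of 521 start window cytosines were lower and 2 higher, which is 5.37% called. Without Rarb it was 2.45%, beside 3.05% in the start windows of the 77 other pathway genes. The 4.74% of all cytosines is not limited to start windows, so it is an unlike set.

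Other genes of the pathway were read from lists chosen with earlier results of these data known. Of 86 genes in all, the 9 included, 55 were tested, 7 rose and 1 fell, beside 6.15% and 4.74% of all tested genes. The median log2 fold change of the tested ones was 0.05, beside 0.00 (-0.0027) over all tested genes. Among 11 carriers and uptake genes 3 were tested and 1 rose, Stra6. Lrat, which stores retinol as esters, was listed at 0.

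Among 25 retinoid enzymes 14 were tested, 2 rose and none fell, beside 6.15% and 4.74% of all tested genes. Cyp1b1, a P450 enzyme that can oxidise retinol among many substrates, was at 1.13 ± 0.27 (log2 fold change ± standard error) in the authors' deposited table and rose. Rdh10, which makes retinal from retinol, was at 0.77 (0.28) with an adjusted p of 0.04995, just inside the threshold, in the authors' deposited table. With p adjusted over all 17478 genes, of which 5.93% are then called, Rdh10 was at 0.0751 and no longer called. Dhrs3, which turns retinal back to retinol, was at 0.56 in the authors' deposited table, adjusted p 0.366. The dehydrogenases Aldh1a1 and Aldh1a3 had mean normalized counts of 7.01 and 0.464 and Cyp26c1 one of 4.46, without an adjusted p, in the authors' deposited table. All 3 Aldh1a genes of the list thus had low counts.

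Among 11 binding proteins and receptors 9 were tested and none was called by the authors' deposited adjusted p (the submitters' processing notes name DESeq2, without its role). An unadjusted p under 0.05 was given for 3 of the 11, beside 16.2% of the 17478 genes with a p. The partner receptors Rxra and Rxrb were at 0.08 and -0.23 (adjusted p 0.880 and 0.517) in the authors' deposited table, and Rxrg was listed at 0. Fabp5, which carries fatty acids and can carry retinoic acid, was at -0.11 (adjusted p 0.826) in the authors' deposited table. Of 17 receptor coregulators, all tested, 1 rose, beside 6.15% of all tested genes. The gene that rose was the acetyltransferase and coactivator gene Kat2b, at 1.16 ± 0.26 in the authors' deposited table.

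Of 29 known retinoic acid targets 17 were tested, 4 rose, Stra6 among them, and 1 fell. Of all tested genes, 6.15% rose and 4.74% fell. Beside Stra6, the homeobox genes Hoxd4 and Meis1 rose, with log2 fold changes of 1.54 and 0.82, as did the transcription factor gene Bhlhe40 with 0.82, in the authors' deposited table. Hoxd4 lies inside the annotated span of Hoxd3, so its reads are uncertain. Rai14 fell, at -0.64 ± 0.21 (log2 fold change ± standard error, adjusted p 0.0307), in the authors' deposited table. Rarb and Cyp26a1, targets often used as readouts of retinoic acid, had no adjusted p. Crabp2 and Cyp26b1, also on this list, were not called. The list thus held members that rose beside members with little RNA or no call.

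**Figure D5:**
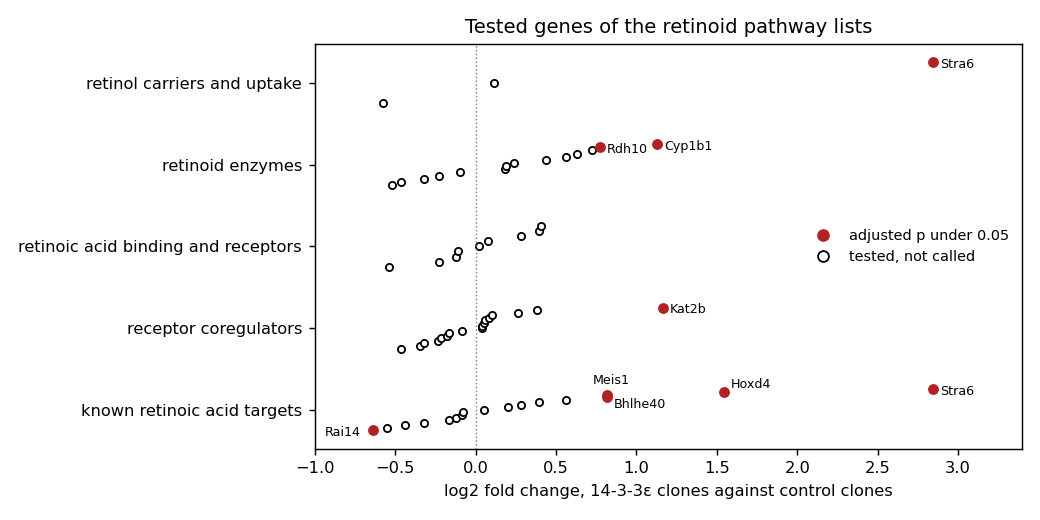
Log2 fold change (x axis) of the tested genes of 5 retinoid pathway lists (y axis) in the authors' deposited table; filled points were called at an adjusted p under 0.05 and are named. Stra6 stands in 2 lists, the binding and receptor list has no filled point, and Rai14 is the only filled point below 0.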

How the data were processed

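RNA-seq and RRBS of 2 control clones and 2 14-3-3ε clones each were used as the authors' own comparisons. Trim Galore, Bismark, Bowtie2, TopHat2, HTSeq, methylKit and DESeq2 and build mm10 are named, per the submitters' processing notes, without role, version or setting. The mean level is a signal the authors deposited, read as the mean of counts over size factors from its header. Log2 fold changes and standard errors, a test score, p-values and adjusted p-values were also deposited by the authors. For each cytosine the authors deposited p- and q-values and a difference in percentage points, handled as a score. A total of 253 duplicate lines were removed.

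Python 3.11.15, pandas 2.3.3, numpy 2.4.6 and scipy 1.17.1 were used. Intervals are estimates ± the 95% normal range of the standard error. How the authors' fold changes and standard errors at low counts were estimated is not stated. Starts, spans and promoter sequences came from RefSeq tables of GRCm38.p6. The adjustment and window counts were tested on simulated data. No values per clone exist in the tables used, so no test was refitted, and depth per sample is unknown. Samples were grouped by their titles.

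The 9 genes, the lists and the window rule were chosen with earlier results of these data known. Named genes were the 9, pathway genes called at an adjusted p under 0.05 or on a short fixed list, the nearest coding genes of a called member and the neighbours of Stra6 in fold. Alternatives changed the thresholds, the genes adjusted over, the window size and the handling of strands. Some genes of the pathway lists are not reported here and were left out of the counts.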

Additional observations from a re-analysis of the deposited data

How the results depend on the processing

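The call of Stra6 was kept at an adjusted p under 0.01, with p adjusted over all genes with one, and with at least 2-fold required. At an adjusted p under 0.1, 2 of the 9 genes were called, Rarg being the second. At under 0.01, 0 pathway genes fell by the deposited adjusted p. Of the 86, 17 had an unadjusted p under 0.05 in either direction, beside 16.2% of the 17478 genes with a p. Of the start window cytosines over the 9 genes, 14 were lower at q under 0.01, 15 with at least 25 points required as well, and 43 with windows of 5000 bp on each side. With the strands of a CpG averaged, 1 CpG was higher. Over all cytosines, 2.47% were called at q under 0.01 and 1.34% with at least 25 points. The lower cytosines at Rarb numbered 13 to 17 across the thresholds and window sizes, and 14 CpGs there held at least 1 lower cytosine. The mean at Rarb was -13.7 points with windows of 500 bp on each side and -9.69 points with 5000 bp. Averaging strands could not move that mean, since every CpG in the window was listed on both strands.

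The tables give no value per clone, so no clone could be left out. No paired analysis was possible because control clones 2 and 3 and 14-3-3ε clones 10 and 12 share no number and the tables hold only comparisons. With 2 clones per group, differences between clones and an effect of 14-3-3ε cannot be told apart, and depth is unknown.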

Other observations

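The repeat with a spacer of 5 bases was in the promoters of 31 genes. Of these, 10 were in the RNA-seq table and 1 was tested, Blvrb, which stood at -0.01 (log2 fold change, adjusted p 0.991) in the authors' deposited table. Start windows of 12 of the 31 had enough listed cytosines, and Rarb was the only one of the 12 called by the window rule. At Prokr2, another of the 12 and named after its values were seen, 11 of 63 cytosines were lower and 1 higher, with a mean of -3.70 points. Over all cytosines, a set not limited to start windows, 2.83% were lower and 1.92% higher.

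Among 57 other pathway genes with enough listed cytosines, 1 start window was called, where the rule called 3.01% of all 14504 windows. This share is no higher than that of all windows, and the 1 gene is given for its values only. It was Hoxb1, a homeobox gene that retinoic acid induces, where 4 of 15 cytosines were higher and none lower, with a mean of 6.70 points. Its mean normalized count was 0.520 in the authors' deposited table. Inside Cyp1b1, whose RNA was higher and which was also picked after its values were seen, 11 of 115 cytosines were lower and 3 higher, with a mean of -3.78 points. Of all cytosines, 2.83% were lower and 1.92% higher.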
